A study of Mus with 9 samples.

Results

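The autophagy genes described here are Ulk1, Becn1, Atg7, Atg5, Map1lc3a, Map1lc3b, Gabarap, Sqstm1, Mtor and Tfeb, measured by microarray in the mouse hippocampus. They were found by an exact match of the gene symbol, which gave 10 probe sets for the 10 genes, 1 each, among 22206 probe sets, which name 22662 genes, in all. No member shared its probe set with another gene symbol.

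The study compared 3 groups, each with 3 arrays by the sample titles. SAMP8 mice, an inbred line with accelerated ageing and early memory decline, were given either trigonelline (TG), a plant alkaloid, orally for 30 days at a daily 5 mg/kg (TG-treated SAMP8) or vehicle alone (SAMP8). SAMR1 mice, the senescence-resistant line used as the normal-ageing control, received vehicle. All mice were males, given as 16 weeks old in the methods, and after the 30 days all went through 8 days of behavioral testing in the Morris water maze, during which TG was continued, before the hippocampus was taken. The vehicle is saline in the sample records and water in the methods. A free-text description in each record concerns a macrophage cell line under other treatments and was not used, and the design text of the series speaks of duplicate samples where the titles give 3. SAMP8 and SAMR1 are different inbred lines, so senescence and any other strain difference cannot be told apart.

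Autophagy is the route by which a cell encloses cytoplasm, damaged organelles or protein aggregates in a double membrane, the autophagosome, and delivers them to the lysosome for breakdown. Neurons do not divide and depend on it to clear proteins and mitochondria, and mice lacking Atg5 or Atg7 in neurons develop neurodegeneration. The pathway acts through the proteins these genes encode and through the lipidation of LC3, and a transcript level does not measure its flux.

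The values are the authors' group averages on the log2 scale, so a difference of 1 is a doubling. The deposited averages carry no spread between arrays, the p-values that the authors deposited beside them were not used, and no test between groups was run here. Every difference below is therefore a description of averages, with no error and no p-value. Because a probe set's signal depends on its probes, levels were compared between groups within a gene and not between genes. The SAMP8 average was identical in both tables for every probe set, so the strain comparison and the TG comparison rest on the same SAMP8 arrays. An error in a gene's SAMP8 average would move these comparisons in opposite directions. Over all probe sets, the median difference was 0.00 for SAMP8 minus SAMR1, 0.01 for TG-treated SAMP8 minus SAMP8 and -0.01 for TG-treated SAMP8 minus SAMR1.

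Among the 10 autophagy genes, Map1lc3b was the only one more than 1.5-fold apart between the strains, and it was higher in SAMP8. With TG, Atg7 and Map1lc3a were more than 1.5-fold higher than in SAMP8. Mtor, Becn1 and Tfeb were lower with TG by less than 1.5-fold, and Atg5 hardly differed between any groups. Between TG-treated SAMP8 and SAMR1, Atg7, Map1lc3b and Map1lc3a were more than 1.5-fold higher and Tfeb more than 1.5-fold lower.

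**Figure D1:**
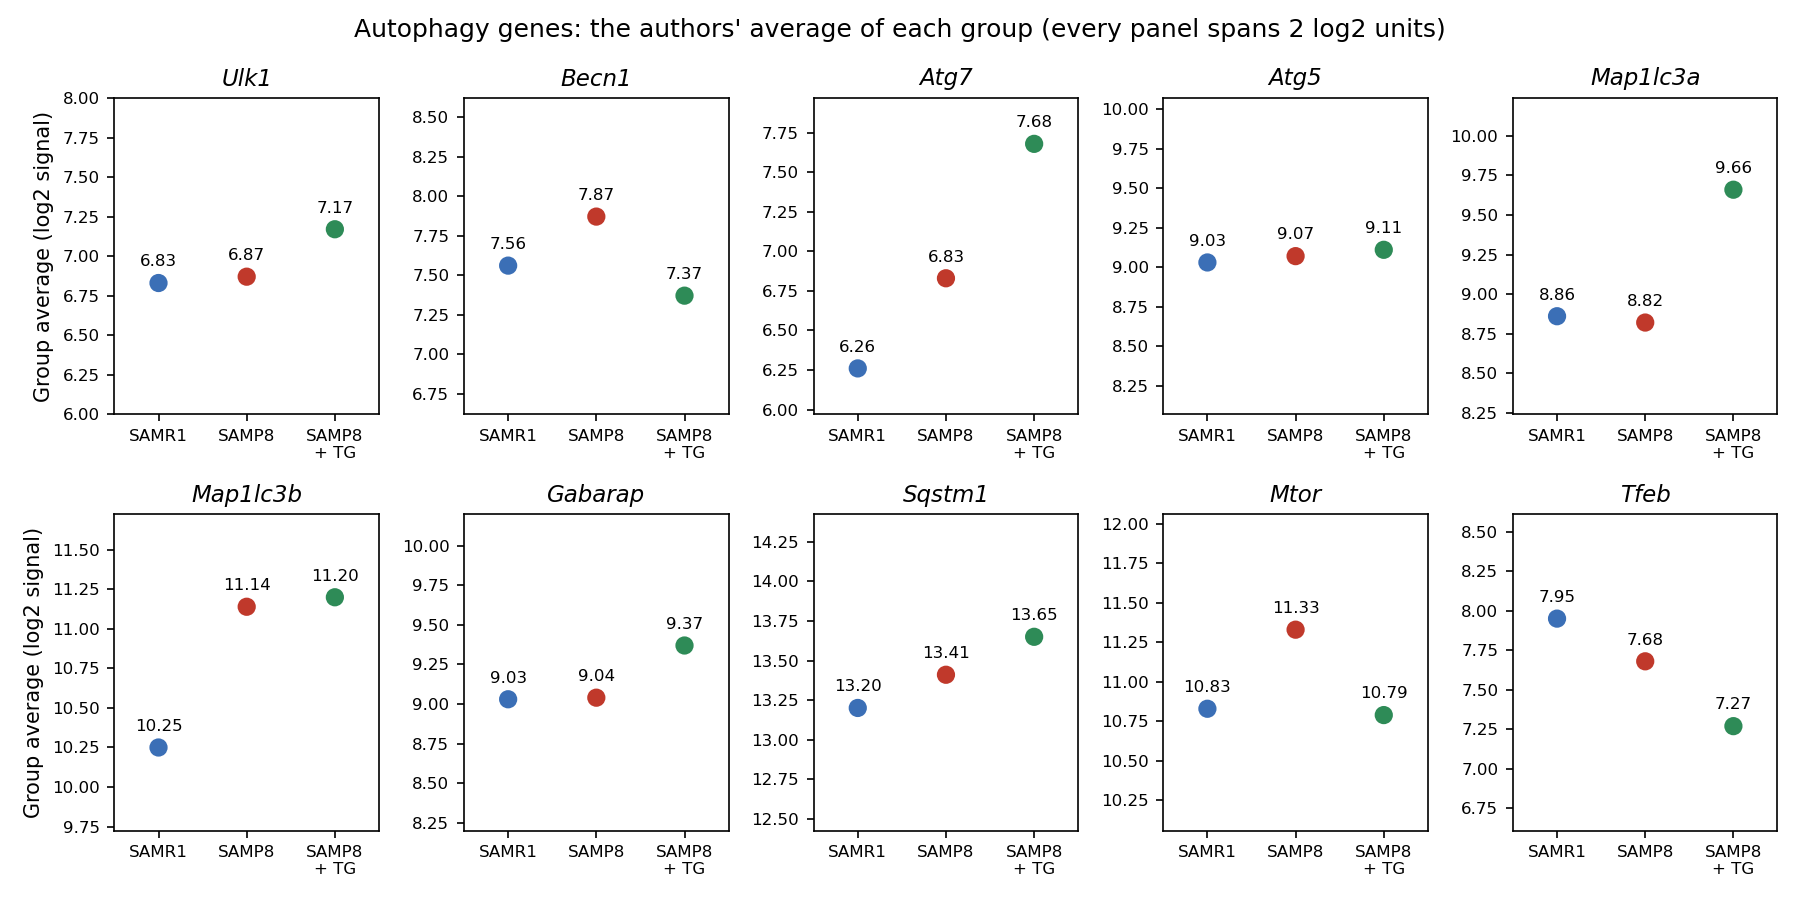
Group average of log2 signal (vertical axis, every panel spanning 2 units) for the 10 autophagy genes in SAMR1, SAMP8 and TG-treated SAMP8, 1 point per group and no error bars, since the averages were deposited without a spread. Atg7 climbs from 6.26 to 7.68 across the groups, Map1lc3b is low in SAMR1 alone, Map1lc3a is high in TG-treated SAMP8 alone, and Atg5 stays between 9.03 and 9.11.

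Counted over the whole array, 5.0% of probe sets were more than 1.5-fold higher in SAMP8 than in SAMR1 and 6.08% more than 1.5-fold lower. Of the 10 members, 1 was higher by that much and 0 were lower. At any size, 8 of 10 were higher, beside 49.46% of all probe sets. Their median difference was 0.12. For TG-treated SAMP8 against SAMP8, the background was 4.48% higher and 3.74% lower. There, 2 members were higher past that limit and 0 lower, and the median difference was 0.15. With TG, 7 of 10 were higher at any size, beside 50.02% of all probe sets. TG-treated SAMP8 against SAMR1 had a background of 5.62% higher and 4.83% lower, with 3 members higher and 1 lower and a member median of 0.34. With 10 genes, each single member is 10 percentage points, so these counts were not read as an enrichment.

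The initiation step is represented by Ulk1, on chromosome 5 from 110784489 to 110810120 (GRCm38), the kinase that starts autophagosome formation and is held back by mTORC1 when nutrients are plentiful. Its averages were 6.83 in SAMR1, 6.87 in SAMP8 and 7.17 with TG. The strains differed by 0.04 and TG-treated SAMP8 lay 0.30 above SAMP8, a 1.23-fold difference. Ulk1 thus stood highest with TG, and nearly equal in both untreated groups. In the whole ULK1 initiation complex (Ulk1, Ulk2, Atg13, Rb1cc1 and Atg101), 4 of 5 genes were higher with TG than in SAMP8, 0 of them by more than 1.5-fold, with a median of 0.15.

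Becn1, on chromosome 11 from 101288258 to 101302286, encodes Beclin 1, a subunit of the class III PI3-kinase complex that marks the growing membrane with phosphatidylinositol 3-phosphate. Becn1 averaged 7.56 in SAMR1, 7.87 in SAMP8 and 7.37 with TG. It was highest in SAMP8, by 0.31 over SAMR1 and by 0.50 (1.41-fold) over TG-treated SAMP8. The difference with TG lay at the percentile 5.95 of all probe sets. Compared with SAMR1, TG-treated SAMP8 was lower by 0.19.

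Its partners, named after their values were seen, were described as a group because they encode subunits of different forms of this complex or proteins that regulate it. At any size, 49.46% of all probe sets were higher in SAMP8 than in SAMR1 and 50.02% higher with TG than in SAMP8. All 8 genes of this group (Becn1, Pik3c3, Pik3r4, Atg14, Uvrag, Nrbf2, Rubcn and Ambra1) were higher in SAMP8 than in SAMR1, with differences from 0.04 to 1.23 and a median of 0.29. All 8 were lower in TG-treated SAMP8 than in SAMP8, with differences from -0.70 to -0.23 and a median of -0.38. These counts share the SAMP8 average. Against SAMR1, which does not enter the TG comparison, TG-treated SAMP8 was higher in 3 and lower in 5, with a median of -0.15. Uvrag, which directs the complex towards autophagosome and endosome maturation, averaged 8.98 in SAMR1, 9.58 in SAMP8 and 8.88 with TG. Rubcn encodes Rubicon, an inhibitor of the complex, and averaged 8.74, 9.97 and 9.66 in the same order. Unlike Uvrag, Rubcn was still 0.92 above SAMR1 in the TG-treated group. Nrbf2, a component of the Atg14-containing form of the complex, averaged 6.46, 7.05 and 6.82.

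The conjugation enzymes attach LC3 and its relatives to the autophagosome membrane. Atg7, on chromosome 6 from 114643127 to 114860604, is the E1-like enzyme that activates both Atg12 and the LC3 proteins. It averaged 6.26 in SAMR1, 6.83 in SAMP8 and 7.68 with TG. SAMP8 was higher than SAMR1 by 0.57 (1.48-fold), just short of 1.5-fold, and TG-treated SAMP8 higher than SAMP8 by 0.85 (1.80-fold). From SAMR1 to TG-treated SAMP8 the difference was 1.42, or 2.68-fold, the widest of the 10 genes and at the percentile 99.64 of all probe sets. Atg7 was the only member for which both SAMP8 groups stood above SAMR1 and TG-treated SAMP8 also stood above SAMP8 by more than 0.5.

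Atg5, on chromosome 10 from 44268322 to 44364299, is coupled to Atg12 by Atg7 and forms with Atg16l1 the complex that sets LC3 onto the lipid. Its averages of 9.03, 9.07 and 9.11 in SAMR1, SAMP8 and TG-treated SAMP8 spanned 0.08, the narrowest range of the 10. Atg12, its conjugation partner, averaged 9.99, 10.85 and 10.31 and was highest in SAMP8, by 0.86 over SAMR1 and by 0.54 over TG-treated SAMP8. The genes of the conjugation machinery did not share a direction. Of the 11, 5 were higher and 6 lower in SAMP8 than in SAMR1, and the same split of 5 and 6 was counted with TG. Atg7 was the only one of them past 1.5-fold with TG, and Atg12 the only one between the strains.

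The ATG8 family holds the ubiquitin-like proteins that coat the autophagosome and bind its cargo receptors. Map1lc3a, on chromosome 2 from 155276364 to 155278073, encodes LC3A. It averaged 8.86 in SAMR1, 8.82 in SAMP8 and 9.66 with TG. The untreated groups differed by 0.04 and the TG-treated group stood 0.84 (1.79-fold) above SAMP8 and 0.80 (1.74-fold) above SAMR1, at the percentiles 98.82 and 97.47 of all probe sets.

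Map1lc3b, on chromosome 8 from 121590438 to 121598760, encodes LC3B, the form most often followed as a marker of autophagosomes. It averaged 10.25 in SAMR1, 11.14 in SAMP8 and 11.20 with TG. Both SAMP8 groups were above SAMR1, by 0.89 (1.85-fold) and 0.95 (1.93-fold), and they differed from each other by 0.06. The strain difference lay at the percentile 98.78. The LC3 genes therefore separated the groups in different ways, LC3A by treatment and LC3B by strain, although neither split was tested here.

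Gabarap, on chromosome 11 from 69991370 to 69994949, belongs to the other branch of the family, which acts later in autophagosome closure and maturation. Its averages were 9.03 in SAMR1, 9.04 in SAMP8 and 9.37 with TG, the same order as for Ulk1 and a 1.26-fold difference with TG. The remaining family genes, named here to complete the group, were Gabarapl1 at 14.02, 14.50 and 14.33 and Gabarapl2 at 8.95, 9.20 and 9.49. In all 5 family genes, TG-treated SAMP8 was higher than SAMR1, by 0.31 to 0.95 with a median of 0.54. At any size, 48.05% of all probe sets were higher in that comparison. Against SAMP8, 4 of 5 were higher with TG, with a median of 0.29.

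Sqstm1, on chromosome 11 from 50200152 to 50210820, encodes p62, the receptor that links ubiquitinated cargo to LC3 and is itself broken down with it. It averaged 13.20 in SAMR1, 13.41 in SAMP8 and 13.65 with TG. The steps of 0.21 and 0.24 added up to 0.45, a 1.37-fold difference between TG-treated SAMP8 and SAMR1. Among 15 receptor genes, 3 were more than 1.5-fold higher in SAMP8 than in SAMR1 and 0 lower, beside 5.0% and 6.08% of all probe sets. With TG, 6 were higher and 9 lower than in SAMP8, with a median of -0.05. Of these, 1 (Tax1bp1) was lower past 1.5-fold and 0 higher, beside 3.74% and 4.48% of all probe sets. Its difference of -0.61 was -0.54, short of 1.5-fold, once the median of probe sets of like signal was subtracted. Bnip3, a mitophagy receptor induced by low oxygen, averaged 9.56 in SAMR1, 10.48 in SAMP8 and 10.47 with TG. Fkbp8, another mitochondrial receptor, averaged 10.38, 11.26 and 11.60. Tax1bp1, a ubiquitin-binding receptor, differed from these in that its TG-treated average was back near SAMR1, at 11.37, 11.96 and 11.35.

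Mtor, on chromosome 4 from 148448582 to 148557685, encodes the kinase of mTORC1, which blocks autophagy by phosphorylating ULK1 and TFEB. Mtor averaged 10.83 in SAMR1, 11.33 in SAMP8 and 10.79 with TG. It was highest in SAMP8, by 0.50 (1.41-fold) over SAMR1 and by 0.54 (1.45-fold) over TG-treated SAMP8. SAMR1 and TG-treated SAMP8 differed by 0.04. Mtor and Becn1, which act on opposite sides of the pathway, had the same order of group averages.

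Of 29 measured genes for mTORC1 and its regulators, 23 were higher and 6 lower in SAMP8 than in SAMR1, with a median of 0.20. At any size, 49.46% of all probe sets were higher. Once the median of probe sets of like signal was subtracted, the median of these genes was 0.1. More than 1.5-fold higher in SAMP8 were Deptor, Tsc1 and Rragd, and 0 genes were lower by that much, beside 5.0% and 6.08% of all probe sets. Deptor, an inhibitor that binds mTOR, averaged 5.87 in SAMR1 and 7.22 in SAMP8, and with TG it was lower than in SAMP8 by 0.72. Tsc1, a subunit of the complex that switches off the mTORC1 activator Rheb, averaged 10.09, 10.83 and 10.06. Rragd, a Rag GTPase that brings mTORC1 to the lysosome, averaged 9.12, 9.78 and 8.99. For TG-treated SAMP8 against SAMP8, 18 genes were lower and 11 higher, with a median of -0.14, beside 50.02% of all probe sets higher.

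Past 1.5-fold with TG, 5 of the mTORC1 genes were lower (Nprl3, Rragd, Tsc1, Deptor and Sesn3) and 2 higher (Lamtor5 and Eif4ebp1), beside 3.74% and 4.48% of all probe sets. Nprl3, part of the GATOR1 complex that restrains the Rag GTPases, averaged 7.22 in SAMR1, 7.57 in SAMP8 and 6.75 with TG. Sesn3, a stress-induced sestrin upstream of GATOR, averaged 11.31, 11.72 and 11.09, and its difference with TG of -0.63 was -0.56, short of 1.5-fold, once the median of probe sets of like signal was subtracted. Lamtor5, a subunit of the Ragulator scaffold, averaged 10.16, 10.36 and 11.17. Eif4ebp1, the translation repressor that mTORC1 phosphorylates, averaged 4.55, 4.23 and 4.86. Its difference with TG of 0.63 was 0.57, also short of 1.5-fold, after the same subtraction. Its SAMP8 average lay below 4.40, the bound of the lowest signals on the array, and its mean of 4.55 just above. Of the 5 lower genes, Nprl3, Tsc1, Deptor and Sesn3 are known as negative regulators of mTORC1 and Rragd as an activator. Their measured partners went both ways with TG. The differences were -0.17 for Tsc2 and 0.47 for Tbc1d7 beside Tsc1, and -0.24 for Depdc5 and 0.21 for Nprl2 in GATOR1. For the other sestrins they were 0.05 for Sesn1 and -0.14 for Sesn2, which lay in the lowest 25% of signal. No direction for mTORC1 was read from these genes.

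Tfeb, on chromosome 17 from 47737037 to 47792416, encodes the transcription factor that switches on lysosomal and autophagy genes once mTORC1 releases it. Tfeb averaged 7.95 in SAMR1, 7.68 in SAMP8 and 7.27 with TG. It was the only member with SAMR1 highest and TG-treated SAMP8 lowest. The steps were -0.27 between the strains and -0.41 with TG, and TG-treated SAMP8 was 0.68 (1.60-fold) below SAMR1, at the percentile 3.18 of all probe sets. Tfe3, a close relative that binds the same DNA element, averaged 6.90, 7.60 and 7.22 and was highest in SAMP8. Among 15 measured lysosomal genes known as TFEB targets, 7 were higher and 8 lower with TG than in SAMP8, with a median of -0.04, and between the strains 9 were higher and 6 lower. Lamp1, a lysosomal membrane protein, averaged 13.85 in SAMR1, 13.52 in SAMP8 and 14.13 with TG. Gaa, the lysosomal alpha-glucosidase, averaged 15.73 in SAMR1 and 15.37 with TG, and SAMP8 stood above them by 0.27 and 0.63.

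**Figure D2:**
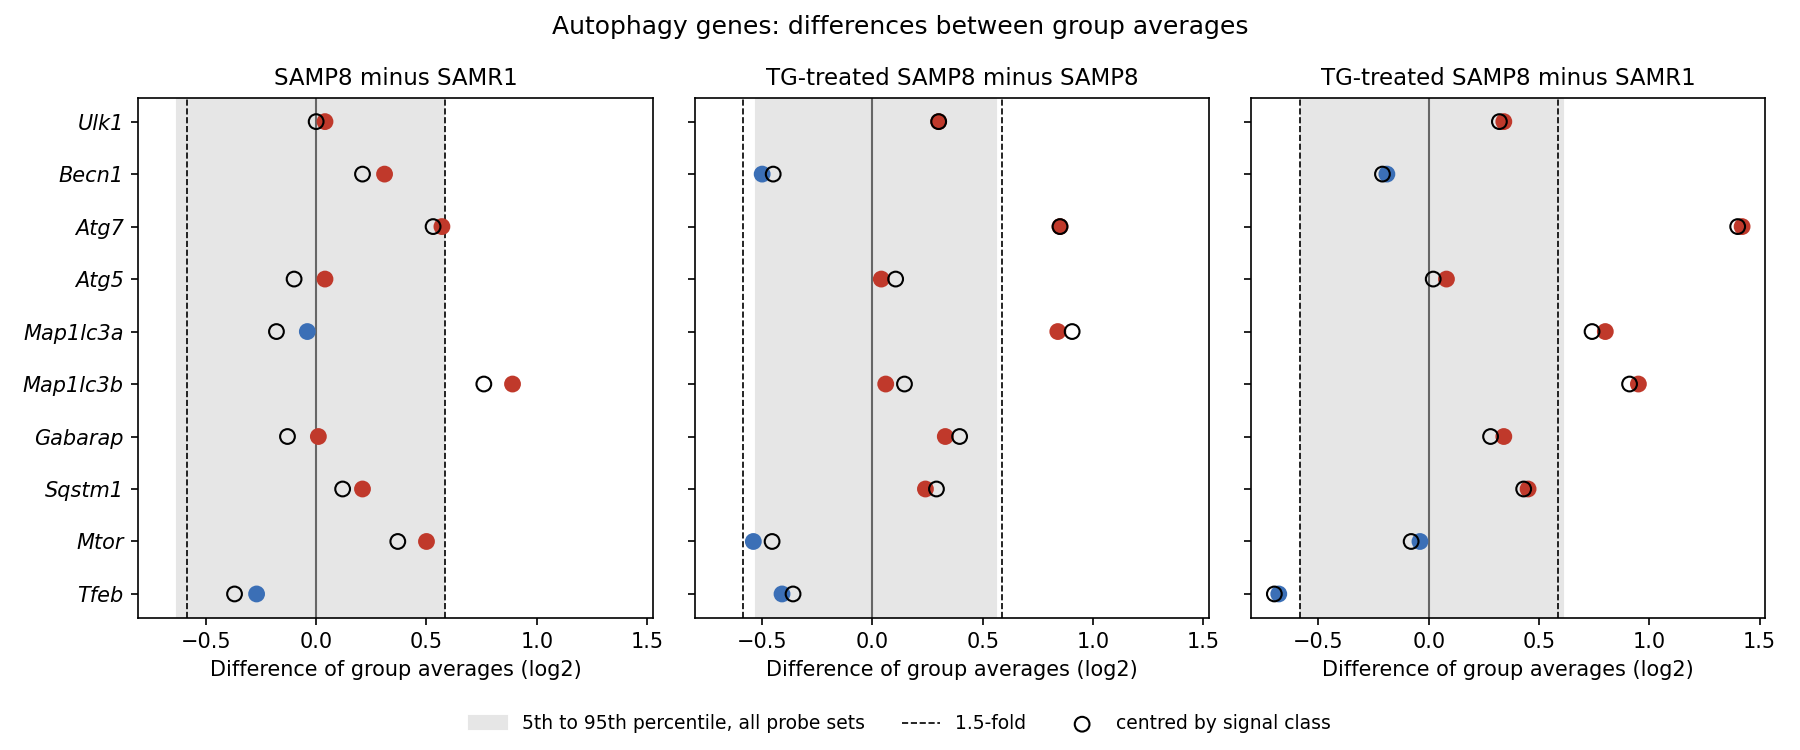
Difference of group averages (log2, horizontal axis) for the 10 autophagy genes in the 3 comparisons. Filled points are the differences between the deposited averages (red higher, blue lower). Open circles are the same after subtracting the median of probe sets of like signal. Dashed lines mark 1.5-fold, and the grey band runs from the 5th to the 95th percentile of all probe sets. Map1lc3b lies outside the band between the strains, Atg7 and Map1lc3a above it and Mtor just below it (-0.54) with TG.

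In order of group averages, 6 of the 10 genes ran from SAMR1 through SAMP8 to TG-treated SAMP8 (Ulk1, Atg7, Atg5, Map1lc3b, Gabarap and Sqstm1). The share of all probe sets in this order was not counted, so the 6 were not read as a shared rise. Becn1 and Mtor were highest in SAMP8 and lowest with TG, Map1lc3a was lowest in SAMP8 and highest with TG, and Tfeb ran from SAMR1 down to TG-treated SAMP8. For Atg5 the whole order rests on steps of 0.04, for Gabarap and Ulk1 the strain step was 0.01 and 0.04, and for Map1lc3b the TG step was 0.06. SAMR1 lay within 0.04 of SAMP8 for Map1lc3a and of TG-treated SAMP8 for Mtor. Neighbours this close have no order that the averages, given to 2 decimals and without a spread, can support. The members lie on 8 chromosomes, with Becn1, Gabarap and Sqstm1 far apart on chromosome 11. Their genomic spans run from 1710 bases for Map1lc3a to 217478 bases for Atg7, the pair of genes past 1.5-fold with TG.

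To set the members within the pathway, 131 genes in 12 roles were examined, of which 127 had a probe set of their own, the 10 members included. In SAMP8 against SAMR1, 14 (11%) were more than 1.5-fold higher and 0 lower, beside 5.0% and 6.08% of all probe sets. At any size, 91 were higher and 36 lower, with a median of 0.15, beside 49.46% of all probe sets higher. In TG-treated SAMP8 against SAMP8, 7 (5.51%) were more than 1.5-fold higher and 8 (6.3%) lower, beside 4.48% and 3.74%. In this comparison 48 were higher and 78 lower at any size, with a median of -0.15, beside 50.02% of all probe sets higher. The median of the 10 members was 0.15 and that of the other 117 measured genes was -0.17, a contrast that was not tested. In TG-treated SAMP8 against SAMR1 the list had a median of 0.03. Past 1.5-fold, 12 genes (9.45%) were higher and 2 (1.57%) lower, beside 5.62% and 4.83% of all probe sets.

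All probe sets were divided into 20 classes by mean signal. In the classes that hold the members, the median difference between the strains ran from 0.04 to 0.14, and with TG from -0.09 to 0.00. After these class medians were subtracted, the list's median was 0.07 between the strains and -0.10 with TG. Past 1.5-fold, 10 genes of the list were then higher in SAMP8 than in SAMR1, in place of 14. For the members the corresponding medians were 0.06 and 0.22. Atg5 and Gabarap then lay below SAMR1 in SAMP8, at -0.10 and -0.13, and Ulk1 lay at 0. No other member changed sign in any of the 3 comparisons.

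**Figure D3:**
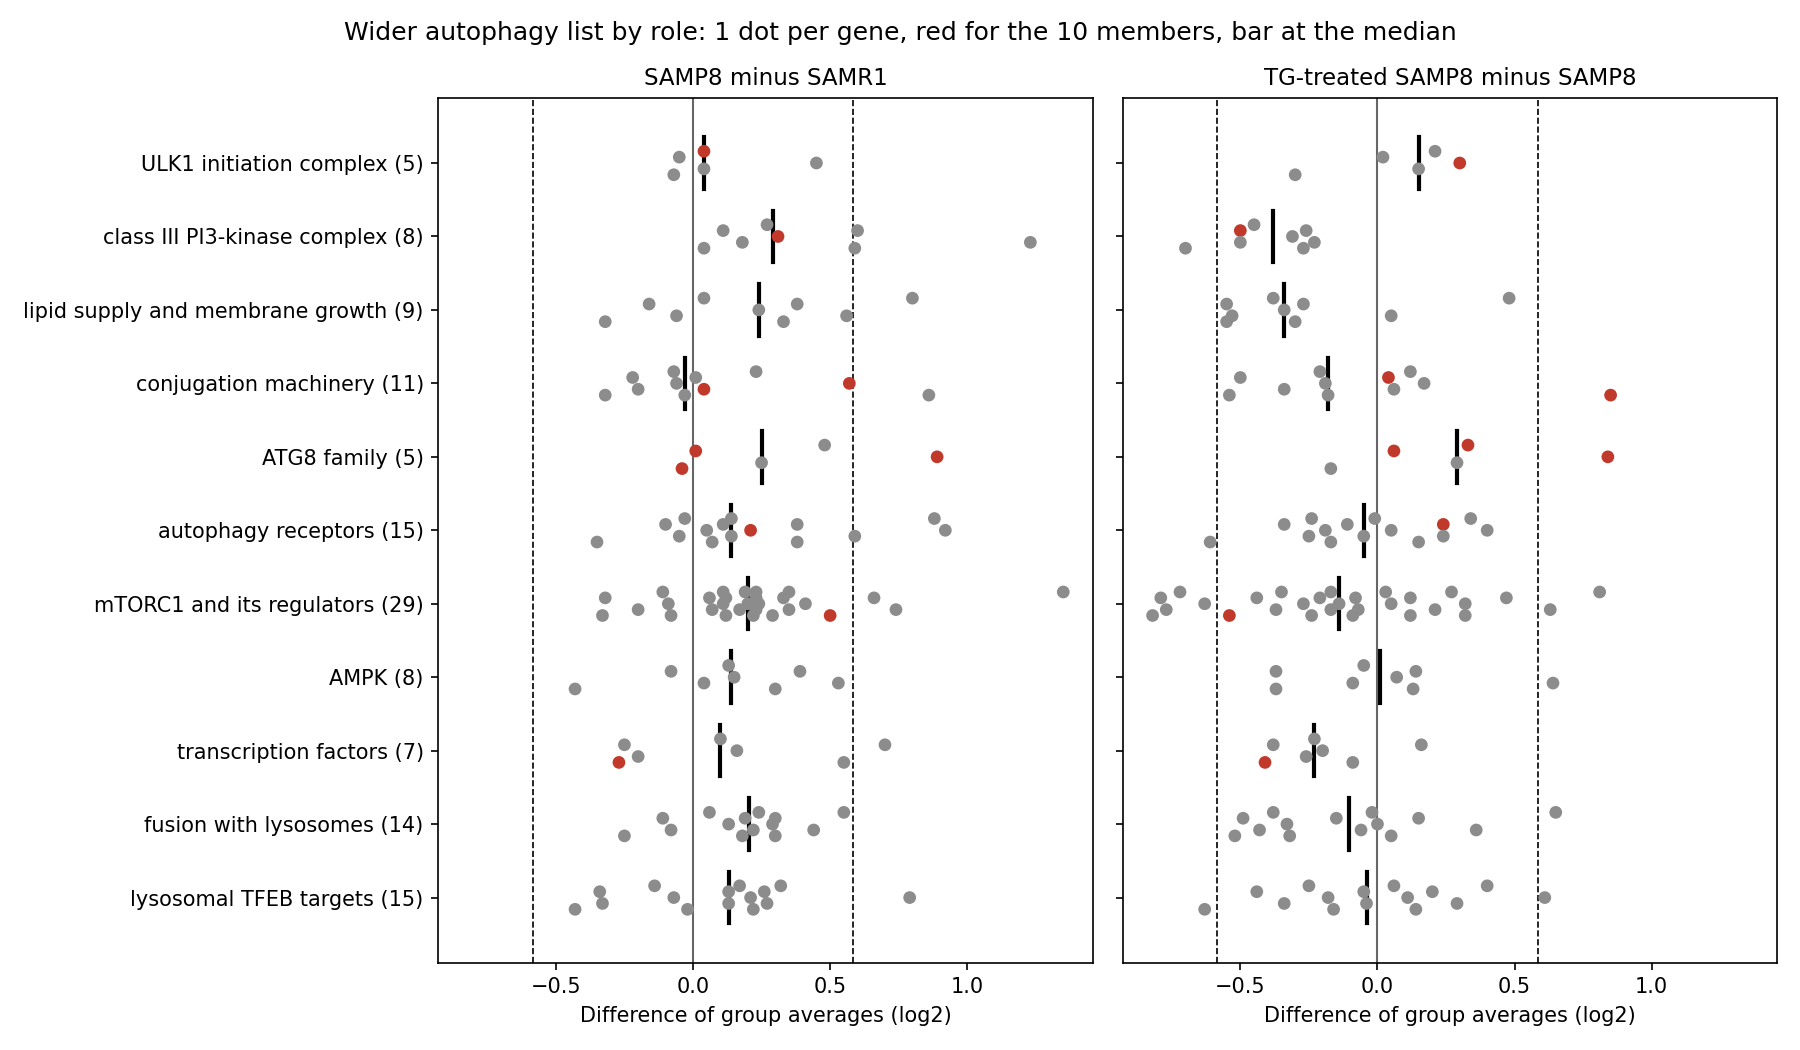
Difference of group averages (log2, horizontal axis) for the measured genes of the wider autophagy list, by role with the number of genes, in SAMP8 minus SAMR1 and TG-treated SAMP8 minus SAMP8. Each dot is a gene (red for the 10 members), bars are medians and dashed lines mark 1.5-fold, and a role with 1 measured gene is left out. All 8 PI3-kinase complex genes lie above 0 on the left and below 0 on the right. In each panel 4 of 5 ATG8 family genes lie above 0, but not the same 4. The exception is Map1lc3a on the left and Gabarapl1 on the right.

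By role, the medians of TG-treated SAMP8 minus SAMP8 were -0.38 for the PI3-kinase complex, -0.34 for lipid supply and membrane growth, -0.23 for the transcription factors and -0.18 for conjugation, against 0.15 for the ULK1 complex and 0.29 for the ATG8 family. In the lipid supply group 7 of 9 genes were lower with TG. Atg2a, which moves lipids into the growing membrane, averaged 6.19 in SAMR1, 6.99 in SAMP8 and 6.65 with TG. AMPK, the energy-sensing kinase that activates ULK1, had a median of 0.01 over 8 genes. Its subunit gene Prkag3, best known from skeletal muscle, averaged 6.91, 6.48 and 7.12. For fusion with lysosomes, 14 genes had a median of -0.11, with Vamp8, a SNARE protein of late endosomes, at 4.03, 3.95 and 4.60, a mean within the lowest 25% of signal (below 4.40).

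Because whole hippocampus was measured, fewer cells of a type and less RNA per cell cannot be told apart. Defining markers of neurons, astrocytes, oligodendrocytes, microglia, endothelium and hippocampal principal cells were all above the lowest 25% of signal (4.40) in their mean over the groups. Sums below are on the linear scale, given as log2 in the order SAMR1, SAMP8 and TG-treated SAMP8, and the probe sets of strongest signal weigh most in them. Each list's counts and median are therefore given too. Past 1.5-fold, 5.0% of all probe sets were higher and 6.08% lower in SAMP8 than in SAMR1. With TG, 4.48% were higher and 3.74% lower than in SAMP8.

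The 5 neuronal markers summed to 20.08, 20.16 and 20.12, led by Syt1, which averaged 19.70 in every group. Between the strains 3 were higher and 1 lower in SAMP8, with 1 (Map2) lower past 1.5-fold and a median of 0.11. With TG 3 were higher and 1 lower, with 0 past 1.5-fold and a median of 0.05. The 5 markers of hippocampal principal cells summed to 15.07, 15.14 and 15.07. Of these, 4 were higher and 1 lower in SAMP8 than in SAMR1, 2 of them higher past 1.5-fold, with a median of 0.44. After subtraction of the class medians this median was 0.31, and Prox1, at 0.47, fell short of 1.5-fold between the strains. With TG, 2 were higher and 3 lower than in SAMP8, 1 of them (Prox1) lower past 1.5-fold, with a median of -0.26.

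The 5 astrocyte markers summed to 18.40, 18.45 and 18.42, led by Slc1a2. All 5 were higher in SAMP8 than in SAMR1, Gfap (0.95) and Slc1a3 (0.62) past 1.5-fold, and 4 of 5 were lower with TG than in SAMP8, 0 past 1.5-fold. The medians were 0.17 and -0.03. After subtraction of the class medians, the strain differences were 0.83 for Gfap, 0.50 for Slc1a3, 0.07 for Aldh1l1, 0 for Aqp4 and -0.05 for Slc1a2. With TG, Aqp4 (0.12), Aldh1l1 (0.02) and Slc1a2 (0.02) then lay above SAMP8, and Gfap (-0.04) and Slc1a3 (-0.31) below. The 5 oligodendrocyte markers summed to 18.89, 18.74 and 18.94. Between the strains 2 were higher and 3 lower in SAMP8, with a median of -0.21. With TG 4 were higher and 1 lower, with a median of 0.15, and Mag was higher past 1.5-fold. The 5 microglial markers summed to 11.61, 12.32 and 12.00. Between the strains 3 were higher and 2 lower in SAMP8, 2 of them higher past 1.5-fold, with a median of 0.09, and with TG 4 of 5 were lower, with a median of -0.31. The 5 endothelial markers summed to 9.53, 10.03 and 9.78, with 4 of 5 higher in SAMP8 than in SAMR1 and 5 of 5 lower with TG, at medians of 0.25 and -0.22. Past 1.5-fold, 1 was higher and 0 lower between the strains, and 0 lower with TG.

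The 8 markers of the meninges, the membranes around the brain, summed to 11.54, 11.73 and 10.49. Between the strains 4 were higher and 3 lower in SAMP8, with 3 higher and 2 lower past 1.5-fold and a median of 0.125. With TG, 5 of 8 were more than 1.5-fold lower than in SAMP8, beside 3.74% of all probe sets, and 3 were higher. The median with TG was -0.715. The 5 smooth muscle markers summed to 7.94, 8.68 and 7.68, with Cnn1 in the lowest 25% of signal. The sum was highest in SAMP8, as was Acta2, at 2.19 between the strains and -2.17 with TG. Tagln went the other way, at -0.83 and 0.71. In all, 2 markers were higher and 3 lower in SAMP8 than in SAMR1 and likewise with TG against SAMP8. Past 1.5-fold, 1 was higher and 1 lower between the strains, and 1 higher and 2 lower with TG. The medians were -0.09 and -0.3. The 6 choroid plexus markers summed to 9.27, 9.95 and 10.40, led by Ttr. Between the strains 4 were higher and 2 lower in SAMP8, and with TG 3 were higher and 3 lower than in SAMP8. Past 1.5-fold, 2 were higher and 0 lower between the strains, and 1 higher and 1 lower with TG. The medians were 0.455 and -0.015, while the sum was highest with TG. The part of these cells in the autophagy values was not tested.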

How the data were processed

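Total RNA of the hippocampus was hybridized to Clariom S Mouse arrays, 3 per group. The authors normalized the scanned signals to gene level with the SST-RMA method of the Transcriptome Analysis Console (version 4.0.1 in the series text; the methods name a later release) and deposited, for each of 2 comparisons, group averages as log2 signal with the mm10 annotation. The same tables also hold the authors' fold changes, p-values and adjusted p-values, which were not used. Values per array were not analysed here, so the number of arrays limits the precision by an amount that was not measured here.

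Differences of the deposited log2 averages were computed for 3 comparisons, each open to rounding at the second decimal, and counted past 1.5-fold (0.585 on the log2 scale). Symbols were matched exactly. Percentiles place a difference among all 22206 probe sets. Alternatives were fold limits of 1.1, 1.2 and 2, centring on the median or on 20 signal classes, the mean over a gene's probe sets, leaving out the 25% of lowest mean signal, and adding probe sets shared with other symbols. Named genes were the 10 members and the genes of the list past 1.5-fold in SAMP8 minus SAMR1 or TG-treated SAMP8 minus SAMP8, some of which are not reported here. The genes completing the ATG8 family and the PI3-kinase group, and the partners of Tsc1, Nprl3 and Sesn3, were named after their values were seen. Members and lists were chosen with earlier results of these data known. Positions are from the RefSeq annotation of GRCm38. The counting was tested on simulated data. Python 3.11.15, numpy 2.4.6, pandas 2.3.3 and matplotlib 3.10.9 were used.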

Additional observations from a re-analysis of the deposited data

How the results depend on the processing

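No paired analysis was possible because the values used are group averages, with no values per array, and for the same reason leaving out single replicates was not run. The fold limit moved the counts most. At 1.1-fold, 5 members were higher and 1 lower in SAMP8 than in SAMR1, 5 higher and 3 lower with TG than in SAMP8, and 6 higher and 2 lower in TG-treated SAMP8 than in SAMR1. At 1.2-fold these counts were 4 and 1, 4 and 3, and 6 and 1. At 2-fold they were 0 and 0, 0 and 0, and 1 and 0. Over these comparisons and both directions, the shares of all probe sets ran from 31.0% to 33.3% at 1.1-fold, from 18.5% to 20.5% at 1.2-fold and from 0.324% to 1.43% at 2-fold. For the wider list in the same order, they were 66 and 18, 32 and 65, and 52 and 35 at 1.1-fold, 41 and 10, 20 and 42, and 43 and 23 at 1.2-fold, and 2 and 0, 0 and 0, and 3 and 0 at 2-fold. Centring by signal class left 5 genes of the wider list lower with TG past 1.5-fold in place of 8, since Tax1bp1, Sesn3 and Gaa fell short. It left 6 higher in place of 7, since Eif4ebp1 fell short. Between the strains it left 10 higher in place of 14, since Uvrag, Nrbf2, Tax1bp1 and Rragd fell short. Without the probe sets of lowest signal, 14 of 122 list genes were higher between the strains, beside 6.26% of the probe sets kept. The other alternatives (median centring, mean over probe sets, no low signal, shared probe sets) kept every count within 1.5 times of the value reported and every list median within 0.1. No member past 1.5-fold changed direction under any centring. Whether any difference exceeds the spread between mice was not judged here, since no values per array were analysed and the authors' p-values were not used.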

Other observations

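Genes of the list that lie on a probe set shared with another symbol were left out of the counts. Ctsd, a lysosomal protease gene whose probe set also lists Ifitm10, averaged 12.71 in SAMR1, 13.08 in SAMP8 and 13.16 with TG. Pink1, the kinase that marks damaged mitochondria for removal, shares its probe set with a microRNA gene and averaged 4.07, 4.49 and 4.25, with a mean below the 4.40 that bounds the lowest 25% of probe sets. Vmp1, needed for autophagosome formation, averaged 10.42, 10.58 and 10.59, and Akt1s1, an mTORC1 inhibitor, 10.89, 10.87 and 10.86.

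Some genes of the list passed 1.5-fold only between TG-treated SAMP8 and SAMR1 and were picked out after their values were seen. Atg9a, the membrane protein carried by vesicles to the forming autophagosome, averaged 12.70 in SAMR1, 12.64 in SAMP8 and 12.09 with TG. Stk11, the kinase that activates AMPK, averaged 8.65, 9.18 and 9.32. Atg101, of the ULK1 complex, averaged 6.04, 6.49 and 6.64, and Lamtor2, of the Ragulator, 8.54, 8.83 and 9.15.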
